A study of Mus musculus with 4 samples.

Results

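The genes described here encode 10 basic leucine zipper (bZIP) transcription factors: the FOS proteins (Fos, Fosb, Fosl1 and Fosl2), the JUN proteins (Jun, Junb and Jund), the related factors Batf and Batf3, and the small MAF protein Maff. They were taken by gene symbol, and each of the 10 symbols was found among the 23284 gene rows of the deposited tables. RNA was measured in macrophages that had been derived from mouse bone marrow in culture. The 4 libraries, 1 for each group, were control (Spic+/+) and Spic-/- cells, each without and with 100 ng/ml lipopolysaccharide (LPS, a bacterial cell wall component sensed by Toll-like receptor 4) for 4 h. Spic encodes Spi-C, an Ets-family factor that heme induces in macrophages, and the study asked how Spi-C affects genes driven by Toll-like receptors. Cells of every group had first been kept for 18 h in hemin, the oxidised form of heme, at 40 µM by the protocol text, while the descriptions of the samples print that number in mM. Sample titles call the knockout conditional, and the labels name no allele, deleted exon, Cre driver, age or number of mice. No untreated cells without hemin were analysed here.

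AP-1 is a family of dimers that bind the DNA element TGANTCA. JUN proteins pair with one another or with FOS proteins, whereas FOS proteins cannot pair with themselves and need a JUN partner. Growth factors, stress and Toll-like receptors act on AP-1 through MAP kinases, which phosphorylate JUN and FOS proteins and switch on their genes within minutes. FOS and JUN messenger RNAs are short-lived, and FOSL1 and FOSL2 usually follow later. BATF and BATF3 also pair with JUN proteins and, together with IRF4 or IRF8, bind composite elements in lymphocytes and dendritic cells. Small MAF proteins such as MAFF lack an activation domain and pair with NRF2 and BACH1 at the elements that control heme oxygenase and other heme-responsive genes.

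The deposited unit is FPKM, a fragment count scaled to transcript length and library size. The steps between low values put 1 FPKM at roughly 15.6 (control) and 12.9 (knockout) fragments per kilobase in the libraries without LPS, and at 10.6 and 8.07 in those with LPS. Intervals below are exact 95% counting intervals from these estimated fragments and cover counting error only. No group had a replicate, so no test could be made between groups, and differences between cultures could not be separated from those between conditions. Log2 ratios are of (FPKM + 1), which understates differences of low genes, and folds with intervals are of FPKM itself. A gene was counted in a comparison with at least 5 FPKM in 1 of its libraries and called at 2-fold or more on the log2 scale. Without LPS, Spic itself stood at 53.1 FPKM in control and 14.98 FPKM in Spic-/- cells, which is 28.2% of control. With LPS the values were 406 and 80.8 FPKM, or 19.9%, so both knockout libraries lay below the matching control. A value per gene does not show which exons the remaining fragments came from.

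With LPS, Batf, Maff, Fosl2, Junb and Fosl1 were higher and Fos and Jun lower, in control and in knockout cells alike. In control cells 5 of the 10 genes were at least 2-fold higher and 2 lower, where 18.8% of the 8050 genes counted were called, 12.3% higher and 6.5% lower. In knockout cells the same 5 and 2 genes were called, where 21.4% of 8098 genes were called, 13.7% higher and 7.74% lower. Jund was counted and not called, and Fosb and Batf3 stayed under 5 FPKM in every library. Fosl1 was counted through its LPS libraries alone. Among all calls, 65.5% were higher in control and 63.9% in knockout as deposited, and 39.4% and 36.4% after upper-quartile scaling. Over all genes the median ratio was 0.11 as deposited and −0.25 after that scaling in control, and 0.12 and −0.26 in knockout. The 7 called genes kept their direction in both genotypes under both scalings.

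**Figure D1:**
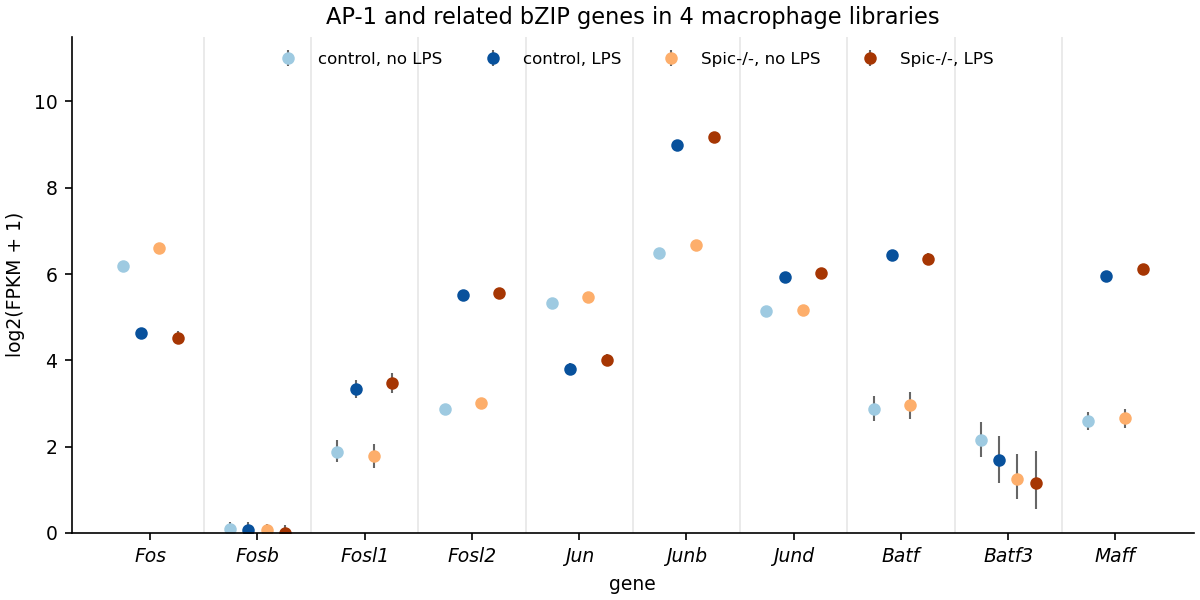
Levels of the 10 genes as log2(FPKM + 1) on the vertical axis, with 1 point for each library and gene symbols on the horizontal axis. Bars are exact 95% counting intervals from estimated fragments. Fos and Jun sit lower in both LPS libraries, while Fosl1, Fosl2, Junb, Batf and Maff sit higher in both.

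The regions just before the start sites of 4 of these genes are shown because the genes mark the ends of the LPS response: Fos and Jun were its 2 lowest members, and Batf and Maff its 2 highest. RefSeq (GRCm38.p6) gave windows for 9 of the 10 genes, and Fosl1 had none. Each window held the 250 bases before a RefSeq start, and bases inside the GENCODE vM21 transcript were left out of the printed stretch. Capitals mark matches on either strand to 6 motifs: the AP-1 element TGANTCA, the CRE-like element TGACNTCA, the Ets-type PU box GAGGAA, the TATA box TATAAA, the CArG box and the kappaB site. Sequences run 5′ to 3′ along the strand of the gene.
Fos, chr12:85473640-85473889, plus strand: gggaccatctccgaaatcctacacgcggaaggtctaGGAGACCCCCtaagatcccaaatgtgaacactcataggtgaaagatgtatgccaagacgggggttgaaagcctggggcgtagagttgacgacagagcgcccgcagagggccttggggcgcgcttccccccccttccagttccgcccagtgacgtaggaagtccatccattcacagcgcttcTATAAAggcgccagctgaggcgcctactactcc
Jun, chr4:95052223-95052472, minus strand: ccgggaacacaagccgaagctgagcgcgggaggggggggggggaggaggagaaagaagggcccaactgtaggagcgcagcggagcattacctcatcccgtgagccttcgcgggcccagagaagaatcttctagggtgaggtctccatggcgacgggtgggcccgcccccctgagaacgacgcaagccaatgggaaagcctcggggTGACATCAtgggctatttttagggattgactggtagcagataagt
Maff, chr15:79347270-79347519, plus strand: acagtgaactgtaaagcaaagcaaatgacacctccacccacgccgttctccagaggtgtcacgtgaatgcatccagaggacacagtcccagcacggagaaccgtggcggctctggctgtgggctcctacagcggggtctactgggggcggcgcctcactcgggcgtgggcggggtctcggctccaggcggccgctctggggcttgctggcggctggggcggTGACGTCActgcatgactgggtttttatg
Batf, chr12:85686470-85686668, plus strand: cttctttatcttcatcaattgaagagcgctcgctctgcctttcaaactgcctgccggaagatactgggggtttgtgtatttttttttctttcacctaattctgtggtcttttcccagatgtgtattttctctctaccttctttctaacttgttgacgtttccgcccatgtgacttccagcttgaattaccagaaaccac
The Jun window held TGACATCA at −45 to −38 from its start, and this Maff window held TGACGTCA, a palindrome, at −29 to −22. Another Maff window, before a start further inside the gene, held TGACATCA, also at −45 to −38. TGACNTCA was found in 7.49% of all 32851 RefSeq windows of 250 bases. Fos had a TATA box at −33 to −28, which 12.4% of windows held, and a kappaB match at −214 to −205, which 3.90% held. The windows of Fosl2 and Fosb and that other Maff window held kappaB matches too, with 2 overlapping ones in Fosl2. The Fosl2 window (chromosome 5, 32136222 to 32136471) lay downstream of the GENCODE start at 32135801, so its matches are inside the annotated gene. GAGGAA was found for Batf3 and in the same Maff window, against 23.3% of all windows. The Batf3 match and that of the printed Maff window lay before the GENCODE transcript starts used, at 191098325 and 79347520. Both were nevertheless inside the annotated gene spans. None of the 11 windows of these genes held TGANTCA (6.75% of all windows) or a CArG box (1.47%). The windows of Junb, Jund and Batf held none of the 6 motifs. Neither did a further Maff window, before the RefSeq start at 79346621. The Jund window (chromosome 8, 70697489 to 70697738) lay before a RefSeq start upstream of the GENCODE start at 70698949. Bases next to that GENCODE start were not searched. A match or its absence is a description of these letters and no evidence of binding.

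Fos, which encodes c-FOS, the founding partner of JUN, stood at 71.6 FPKM in control and 96.3 FPKM in knockout without LPS. With LPS it stood at 23.8 FPKM in control and 21.9 FPKM in knockout. Both LPS libraries therefore lay far below both libraries without LPS. The FPKM with LPS was 33.2% of that without in control (fold 0.332, interval 0.30 to 0.367) and 22.8% in knockout (fold 0.228, interval 0.203 to 0.256), and the log2 ratios were −1.55 and −2.08. These values rested on about 2123 and 478 fragments in control and 2365 and 336 in knockout.

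Fosl2, which encodes FRA2, went the other way. It stood at 6.31 FPKM in control and 7.06 FPKM in knockout without LPS, and at 44.5 and 46.4 FPKM with LPS. The folds were 7.04 (interval 6.46 to 7.70) in control and 6.57 (5.996 to 7.21) in knockout, with log2 ratios of 2.64 and 2.55. Fosl1, which encodes FRA1, was lower throughout, at 2.69 and 2.43 FPKM without LPS and 9.07 and 10.1 FPKM with LPS in control and knockout. Its folds were 3.37 (2.51 to 4.502) and 4.16 (3.003 to 5.85). The log2 ratios of Fosl1 were 1.45 and 1.70, and with a pseudocount of 5 FPKM the control ratio was 0.87, under 2-fold.

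Fosb, the fourth FOS gene, was close to absent in all libraries. It was listed at 0.0717 FPKM in control and 0.0433 FPKM in knockout without LPS, at 0.0529 in control with LPS and at 0 in knockout with LPS. These values correspond to about 4, 2, 2 and 0 fragments, and the exact interval of the 0 in the last library reaches 0.128 FPKM (3 fragments there would be 0.104 FPKM). No difference in Fosb was detectable at this depth.

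Junb was the most abundant of the 10 genes in every library. JUNB binds the same element as c-JUN and is a weaker activator. Its RNA stood at 88.5 FPKM in control and 100.9 FPKM in knockout without LPS, and at 510 and 582 FPKM with LPS. The folds were 5.77 (5.50 to 6.05) in control and 5.76 (5.49 to 6.05) in knockout, and the log2 ratios were 2.51 and 2.52. By level Junb ranked at position 226 of the 23284 rows in control with LPS and at 783 without. In the annotation the Junb locus overlaps Prdx2 on the opposite strand. Prdx2 stood between 143 and 208 FPKM in the 4 libraries and was lower with LPS in each genotype.

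Jun, which encodes c-JUN, followed Fos. It stood at 39.2 FPKM in control and 43.2 FPKM in knockout without LPS, and at 12.9 and 15.1 FPKM with LPS. The FPKM with LPS was 32.9% of that without in control (fold 0.329, interval 0.295 to 0.367) and 35.0% in knockout (fold 0.35, interval 0.311 to 0.392). The log2 ratio was −1.53 in control and −1.46 in knockout. Jund, whose product is the JUN protein usually present in resting cells, stood at 34.4 and 35.1 FPKM without LPS and at 59.9 and 64.1 FPKM with LPS in control and knockout. Its folds of 1.74 (1.58 to 1.92) and 1.82 (1.64 to 2.03) gave log2 ratios of 0.78 and 0.85, which were 0.41 and 0.45 after upper-quartile scaling.

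Batf had the highest LPS ratio of the 10 genes in control. It stood at 6.34 FPKM in control and 6.77 FPKM in knockout without LPS, and at 85.8 and 80.9 FPKM with LPS. The folds were 13.5 (10.6 to 17.4) and 11.9 (9.24 to 15.8), with log2 ratios of 3.56 and 3.40. Its relative Batf3, a factor needed for cross-presenting dendritic cells, was low everywhere: 3.43 FPKM in control and 1.38 FPKM in knockout without LPS, and 2.25 and 1.23 FPKM with LPS. These 4 values rest on about 32, 11, 14 and 6 fragments, and the LPS folds of 0.655 (0.318 to 1.24) in control and 0.891 (0.266 to 2.58) in knockout had intervals that included 1. Of the 8 dendritic cell markers checked, all were under 1 FPKM in each library and 2 were at 0 in all of them.

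Maff stood at 5.02 FPKM in control and 5.29 FPKM in knockout without LPS, and at 61.2 and 68.7 FPKM with LPS. Its folds were 12.2 (10.2 to 14.7) and 12.98 (10.7 to 15.8), and the log2 ratios were 3.37 and 3.47. The other small MAF genes, Mafg and Mafk, had smaller ratios: Mafg stood at 47.5 and 78.7 FPKM without and with LPS in control (log2 ratio 0.72), and Mafk at 10.7 and 18.6 FPKM (0.74). These 2 genes were named after their values were seen.

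**Figure D2:**
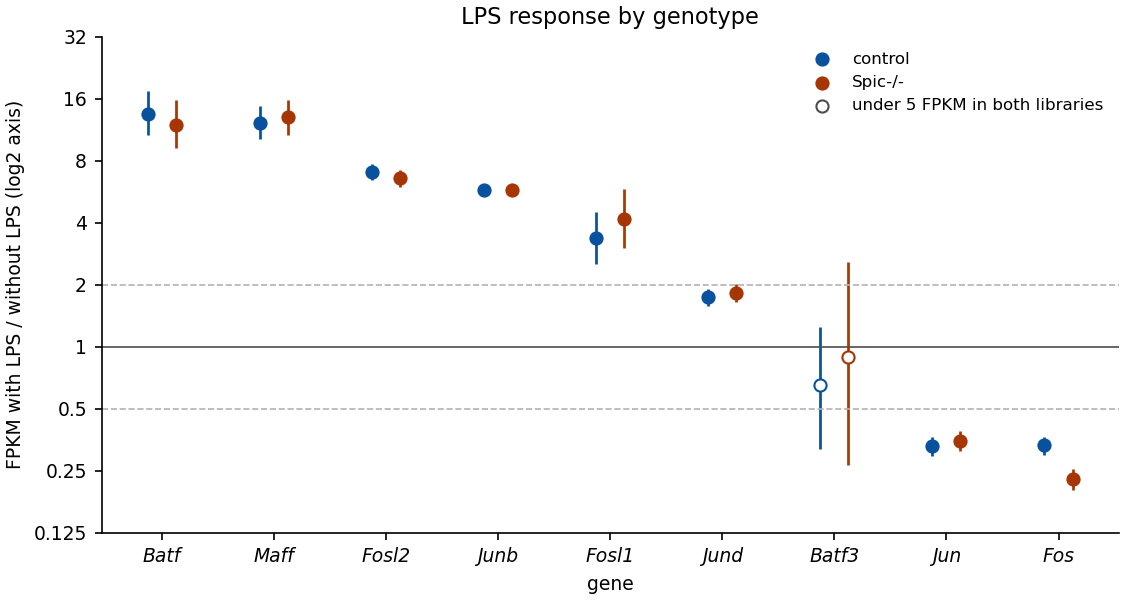
FPKM with LPS divided by FPKM without LPS (vertical log2 axis) for 9 of the 10 genes on the horizontal axis, in control and Spic-/- macrophages; Fosb is left out because it is listed at 0 in 1 library. Bars are exact 95% counting intervals, open symbols are under 5 FPKM in both libraries, and dashed lines mark 2-fold. The intervals of the 2 genotypes overlap for every gene shown except Fos, at 0.332 in control and 0.228 in Spic-/-.

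Per length, the order of the genes differed between the states. Without LPS, Junb, Fos, Jun and Jund were the 4 highest in both genotypes, in that order, with all others at 7.06 FPKM or less. The counting intervals of Junb and Fos did not overlap in control (88.5 and 71.6 FPKM) and did overlap in knockout (100.9 and 96.3 FPKM). With LPS the order was Junb, Batf, Maff, Jund, Fosl2, Fos, Jun, Fosl1, Batf3 and Fosb in both genotypes. Among neighbours in that order, the intervals of Maff and Jund overlapped in each genotype (61.2 and 59.9 FPKM in control), and the others did not.

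The makeup of each family differed between the libraries without and with LPS. The summed FPKM of the 4 FOS genes was 80.6 in control without LPS and 77.3 with LPS, and 106 and 78.4 in knockout. Fos made up 88.7% of that sum in control without LPS and 30.7% with LPS, and 91.0% and 28.0% in knockout. Fosl2 made up 7.83% and 57.5% in control, and 6.68% and 59.1% in knockout. Within a library these shares do not depend on how libraries are scaled against each other.

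The summed JUN level was higher with LPS, at 162 and 583 FPKM in control and 179 and 661 FPKM in knockout. Junb made up 54.6% of it without LPS and 87.5% with LPS in control, and 56.3% and 88.0% in knockout. Jun made up 24.2% and 2.22% in control, and 24.1% and 2.28% in knockout. Junb was thus 2.26-fold as abundant as Jun in control without LPS and 39.5-fold with LPS, and 2.34-fold and 38.5-fold in knockout.

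**Figure D3:**
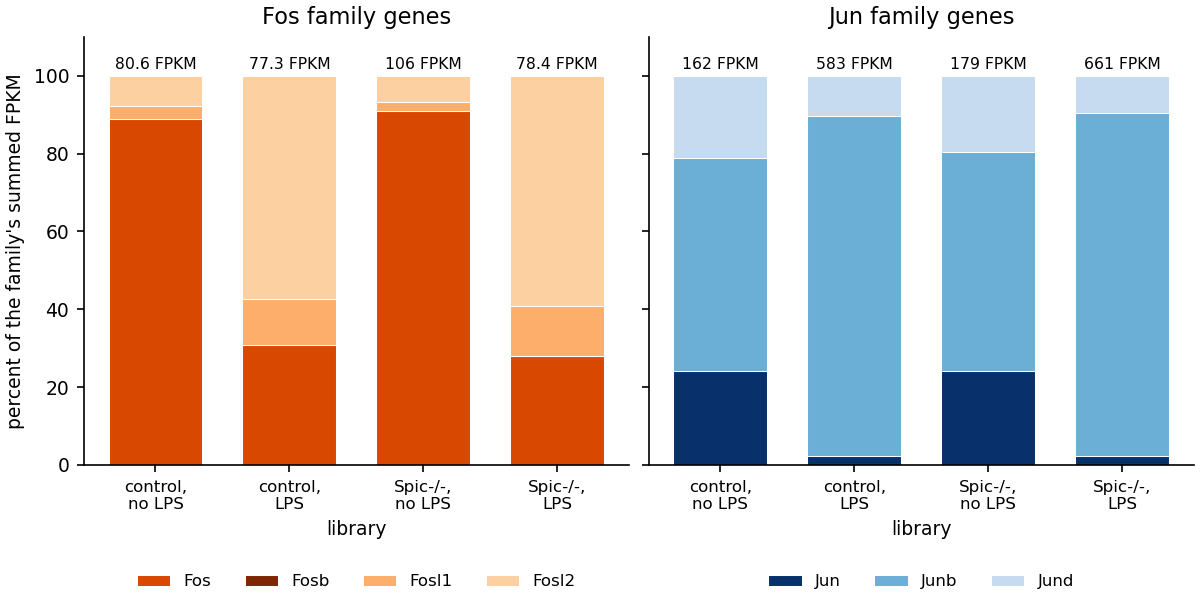
Share of each gene in the summed FPKM of the FOS genes (left) and JUN genes (right), in percent on the vertical axis, for the 4 libraries on the horizontal axis; the sum in FPKM stands above each bar. Fos takes 88.7% and 91.0% of its family without LPS and 30.7% and 28.0% with LPS, and Junb takes 87.5% and 88.0% of its family with LPS.

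Fos and Batf lie on the same chromosome with the bZIP gene Jdp2 between them. On chromosome 12 (GRCm38, GENCODE vM21) Fos spans 85473890 to 85477273 with 4 exons, Jdp2 spans 85599027 to 85639878, and Batf spans 85686669 to 85709087 with 3 exons, all on the plus strand. Jdp2, which encodes a repressor that pairs with c-JUN, begins 122 kb after Fos and ends 46.8 kb before Batf. It stood at 8.66 FPKM in control and 9.32 FPKM in knockout without LPS, and at 77.5 and 81.4 FPKM with LPS, with log2 ratios of 3.02 and 2.997. Of these 3 neighbours, Batf and Jdp2 were higher with LPS and Fos was lower.

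The other genes lie apart. Fosb is on chromosome 7 (19302696 to 19310051, minus strand), Fosl1 on chromosome 19 (5447547 to 5455946, plus) and Fosl2 on chromosome 5 (32135801 to 32157842, plus). Jun is on chromosome 4 (95049034 to 95052222, minus), and has a single exon, as do Junb (chromosome 8, 84974484 to 84978718, minus) and Jund (chromosome 8, 70698949 to 70700616, plus). Batf3 is on chromosome 1 (191097847 to 191108945, plus) and Maff on chromosome 15 (79346621 to 79359076, plus). Fosl1 overlaps Ccdc85b on the opposite strand, which stood at 5.46 and 11.2 FPKM in control without and with LPS. Antisense transcripts overlap Jun (Junos) and Jund (Gm11175), and these symbols were not among the rows used here. The kit was stranded, but the sources used here do not say whether strand was used in counting, so reads of such pairs may not be separated.

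Messenger RNA stability is one known level of control of this family, through AU-rich elements in the region after the stop codon. The nonamer TTATTTATT was found in that region for Fos, Fosl2 and Maff, and these sites are shown because Fos was lower with LPS and the other two were higher. Capitals mark the nonamer, with 9 bases on each side, in DNA letters from the GENCODE vM21 transcripts.
Fos, bases 646 to 672 of 815: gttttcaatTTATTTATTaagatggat
Fosl2, bases 3683 to 3709 of 4653: tttattttaTTATTTATTttaaatgtt
Maff, first site, bases 924 to 950 of 1221: tccacactcTTATTTATTgcacgaatc
Maff, second site, bases 1123 to 1149 of 1221: tcccagagtTTATTTATTttctgactt
The nonamer was present in 3 of the 10 genes and in 7.58% of 7415 coding genes with at least 5 FPKM in 1 library. The shorter ATTTA was found 4 times in Fos and in Jun, 8 times in Fosl2, 4 times in Maff, 2 times in Junb, 1 time in Fosb, Fosl1 and Jund, and not in Batf or Batf3. Per kilobase this was 4.91 in Fos, 4.12 in Junb, 3.28 in Maff, 3.24 in Jun, 1.88 in Jund, 1.72 in Fosl2 and 1.57 in Fosl1. It was 0.466 in Fosb and 0 in Batf and Batf3, against a median of 1.31 over the coding genes. ATTTA was present in 80% of the members and 68.9% of the coding genes. At least 3 copies were present in 40% and 37.1%, so these shares lay near those of all coding genes. Genes that were lower with LPS and genes that were higher thus both carried these letters, and no RNA decay was measured.

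Between genotypes, none of the 10 genes was called in either LPS state, where 0.902% of 7762 genes were called without LPS (0.49% higher and 0.412% lower) and 0.892% of 7509 with LPS (0.493% higher and 0.4% lower). With LPS, 55.2% of all calls were higher in knockout as deposited, 41.8% after upper-quartile scaling and 63.0% without small RNA and unnamed rows. All 7 members counted without LPS and all 8 counted with LPS lay within 1.5-fold. Over all genes, 1.75% were at least 1.5-fold higher and 1.37% lower without LPS, and 2.86% and 1.69% with LPS. Over all 10 genes the log2 ratios of knockout to control ran from −0.90 to 0.42 without LPS and from −0.54 to 0.21 with LPS. The lowest value in each state belonged to Batf3, which was not counted.

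Fos had the highest genotype ratio of the members without LPS. At 71.6 FPKM in control and 96.3 FPKM in knockout, its fold was 1.35 (1.27 to 1.43) and its log2 ratio 0.42, while the central 95% of all genes ran from −0.37 to 0.49. With LPS the 2 genotypes stood at 23.8 and 21.9 FPKM, a fold of 0.924 (0.801 to 1.06). The LPS response of Fos in knockout minus that in control was −0.53 on the log2 scale. The central 95% of 8272 genes had differences from −0.49 to 0.47, and Fos was the only one of the 10 members outside it. No member reached a 2-fold difference of responses, where 0.822% of genes did.

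Junb had a genotype ratio of 1.14-fold (1.07 to 1.21) without LPS and 1.14-fold (1.11 to 1.18) with LPS, or 0.19 on the log2 scale in both. Its LPS responses differed by 0.00. After upper-quartile scaling the genotype ratios of Junb were 0.10 and 0.07. For Jun the knockout to control fold was 1.10 (1.03 to 1.18) without LPS and 1.17 (1.01 to 1.35) with LPS.

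The knockout to control fold of Maff was 1.05 (0.821 to 1.36) without LPS and 1.12 (1.03 to 1.22) with LPS. The intervals included 1 in both states for Fosl2 (1.12 and 1.04), Jund (1.02 and 1.07), Batf (1.07 and 0.943) and Fosl1 (0.901 and 1.11). The log2 ratio was above 0 as deposited and below 0 after upper-quartile scaling for Fosl2 and Jund with LPS and for Jund and Maff without LPS. A culture-to-culture spread cannot be given, so a fold whose counting interval leaves out 1 shows a difference between 2 libraries only.

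Batf3 had the lowest knockout to control fold without LPS, and with LPS the lowest apart from Fosb, which is listed at 0 in knockout. Without LPS it was 0.403 (0.189 to 0.845), at 3.43 FPKM in control and 1.38 FPKM in knockout, and with LPS 0.548 (0.177 to 1.56), at 2.25 and 1.23 FPKM. The log2 ratios were −0.90 and −0.54. Both knockout values lay below both control values, on at most 32 fragments each.

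**Figure D4:**
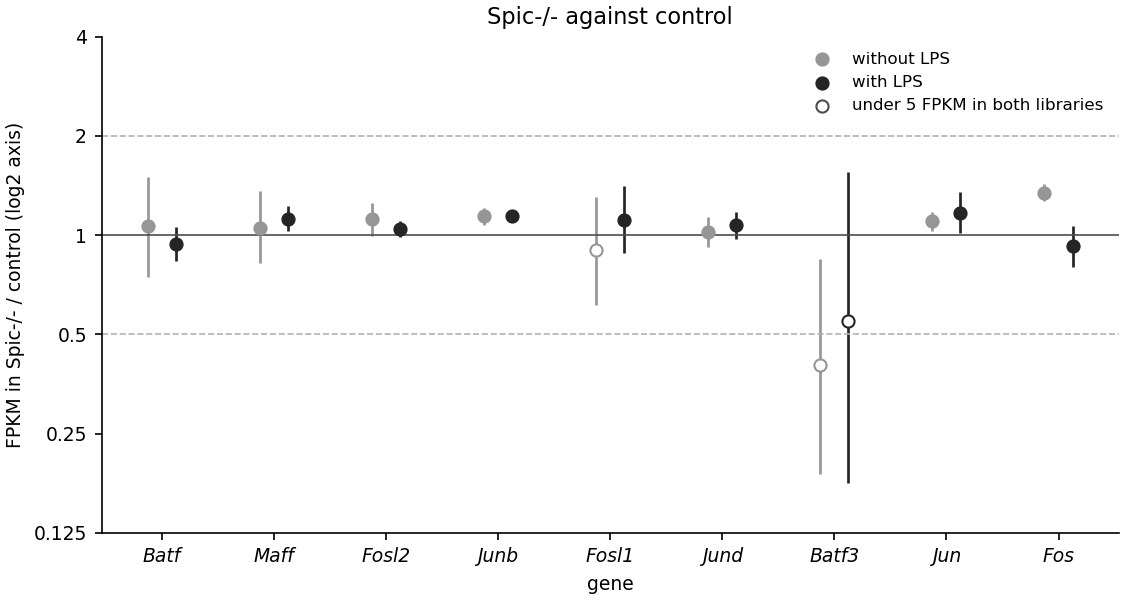
FPKM in Spic-/- divided by FPKM in control (vertical log2 axis) for the 9 genes on the horizontal axis, without and with LPS. Bars are exact 95% counting intervals, open symbols are under 5 FPKM in both libraries, and dashed lines mark 2-fold. Fos lies at 1.35 without LPS and 0.924 with LPS, and Batf3 lies lowest at 0.403 and 0.548.

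Markers of other cells differed between these libraries too. All 8 macrophage markers in the files reached 5 FPKM, and their summed level was 8165 FPKM in control and 6282 FPKM in knockout without LPS, and 10822 and 9526 with LPS. These sums are carried by a few genes: Lyz2, the lysozyme gene, stood at 6340 and 4014 FPKM in control and knockout without LPS and at 5620 and 3419 FPKM with LPS. Cd14, the LPS co-receptor, stood at 114 and 234 FPKM without LPS and at 3523 and 4092 FPKM with LPS. Of the other macrophage markers, Emr1, Csf1r, Cd68, Itgam and Fcgr1 were higher in knockout than in control in both states. Emr1, for example, stood at 439 and 549 FPKM in control and knockout without LPS. Mertk was lower in knockout without LPS (18.5 and 17.9 FPKM in control and knockout) and higher with LPS (6.85 and 9.74 FPKM). The 10 stromal markers, of which 8 reached 5 FPKM and none was at 0 throughout, summed to 594 FPKM in control and 313 FPKM in knockout without LPS, and to 628 and 360 FPKM with LPS. Acta2 was the largest part, at 237 and 109 FPKM in control and knockout without LPS. Dcn (2.71 and 2.82 FPKM without LPS) and Lum, under 1 FPKM, were higher in knockout in both states, and the other stromal markers were lower. Of 7 neutrophil markers 2 reached 5 FPKM and 1, Mpo, was at 0 throughout. They summed to 41.4 and 31.4 FPKM in control and knockout without LPS, and to 242 and 131 FPKM with LPS. The sums with LPS are mostly S100a8, at 214 FPKM in control and 114 FPKM in knockout. Without LPS S100a8 stood at 20.2 and 18.5 FPKM. S100a9 stood at 16.7 and 19.9 FPKM without and with LPS in control, and at 9.94 and 11.96 FPKM in knockout. Whether neutrophil numbers differed between the libraries was not tested. Markers of B cells, T and NK cells and erythroid cells summed to at most 2.197 FPKM in a library, and all 5 mast cell markers were at 0. The part of stromal or neutrophil RNA in the member values was not tested, and fewer cells of a type and less RNA per cell cannot be told apart in bulk RNA.

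The wider bZIP family held genes that were higher and genes that were lower with LPS. Of 43 other bZIP genes, 36 reached 1 FPKM in 1 library. In control 6 of these were at least 2-fold higher and 5 lower, with a median log2 ratio of 0.36, where 10.04% of 10935 genes at that level were higher and 6.68% lower with a median of 0.01. Cebpd (7.11 and 93.2 FPKM without and with LPS in control), a C/EBP factor of the acute phase, had the highest ratio, 3.54. Next were Nfil3 (4.59 and 58.1 FPKM, 3.40) and Jdp2. The other higher genes were Batf2, Cebpb and Nfe2l2, and lower ones included Dbp (6.31 and 0.77 FPKM, −2.05) and Tef (20.7 and 6.50 FPKM, −1.54), all 5 named after their LPS values were seen. In knockout 7 were higher and 5 lower, where 11.2% of all genes were higher and 8.12% lower. The median was 0.24 in knockout, and after upper-quartile scaling the medians were 0.01 in control and −0.10 in knockout.

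**Figure D5:**
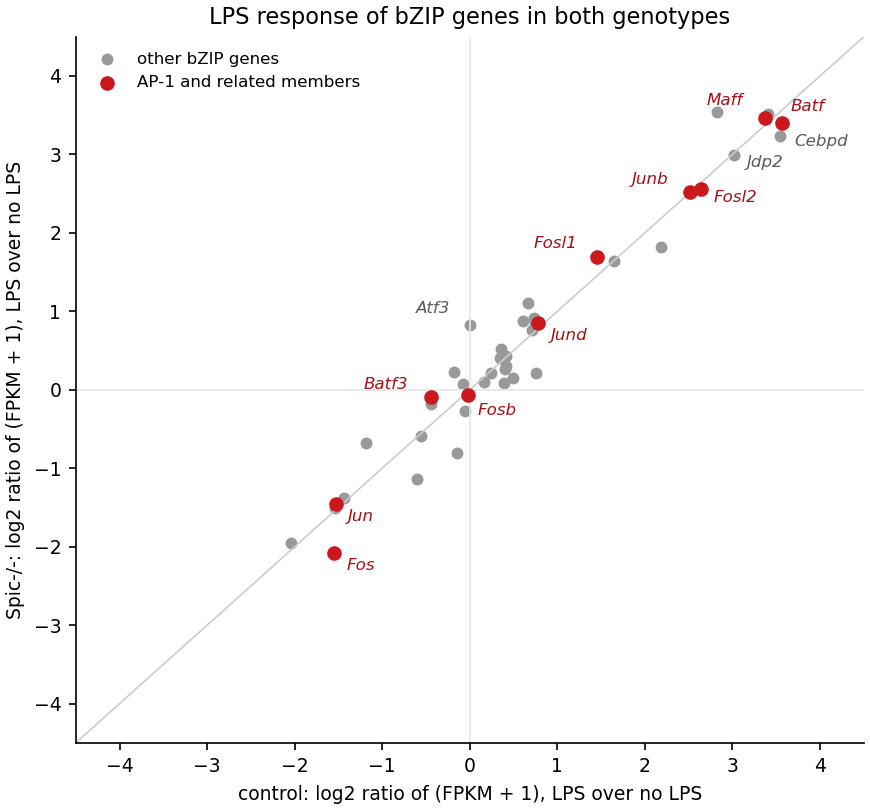
Log2 ratio of (FPKM + 1), LPS over no LPS, in control (horizontal) and Spic-/- (vertical) for the 10 members and other bZIP genes at 1 FPKM or more; the diagonal marks equal responses. Batf and Maff lie at the upper right, at 3.56 and 3.37 in control. Fos lies below the diagonal, at −1.55 in control and −2.08 in Spic-/-, and Atf3 lies above the diagonal, at 0.00 in control and 0.82 in Spic-/-.

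Between genotypes no other bZIP gene was 2-fold apart, and none was 1.5-fold apart without LPS, where the 2 furthest were Mafk (10.7 FPKM in control and 14.6 FPKM in knockout, log2 ratio 0.41) and Dbp (6.31 and 4.84 FPKM, −0.32). With LPS 3 of 36 were at least 1.5-fold higher in knockout, where 2.62% of 10935 genes were. They were Atf3, a stress-induced factor that limits Toll-like receptor responses, at 159 and 267 FPKM (0.75), Crem at 3.82 and 6.74 FPKM (0.68) and Batf2 at 43.5 and 69.7 FPKM (0.67). Batf2 was named after its values were seen.

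Among kinases and factors that act on AP-1, a few stood far apart with LPS. Of 33 upstream genes at 1 FPKM, 7 were at least 2-fold higher and 3 lower in control, with a median of 0.23, and 5 and 3 in knockout, with a median of 0.28; after upper-quartile scaling these medians were −0.14 and −0.12. Of all genes at that level 10.04% were higher and 6.68% lower in control, and 11.2% and 8.12% in knockout, so the 3 lower genes are a share (9.09%) near that of all genes. Map3k8, which encodes the kinase TPL2 upstream of ERK, stood at 6.84 and 91.1 FPKM without and with LPS in control (log2 ratio 3.55), and Mapkapk2, the kinase downstream of p38, at 85.0 and 834 FPKM (3.28). Tab2, an adaptor of the kinase TAK1, was at 28.6 and 97.2 FPKM (1.73), and Mef2c at 4.92 and 0.838 FPKM (−1.69). None of the 33 was 1.5-fold apart between genotypes in either state. The furthest were Elk3 (0.37) and Rps6ka5 (0.32) without LPS and Rps6ka5 (0.42) and Map2k3 (0.37) with LPS.

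Of 23 immediate early genes outside AP-1, LPS libraries of control cells had 15 at least 2-fold higher and 3 lower, with a median of 2.10, and 15 and 2 in knockout. Nr4a3, named after its values were seen, was at 0 FPKM in both libraries without LPS and was counted through its LPS libraries alone. Among all genes 10.04% were higher and 6.68% lower in control, against 65.2% and 13.04% of this list, and 11.2% and 8.12% in knockout, against 65.2% and 8.70%. The highest were Dusp2 (6.61), a phosphatase of MAP kinases, Tnfaip3 (5.48), Nfkbia (3.93) and Zfp36 (3.88), whose product binds AU-rich elements. The 3 lower ones were Klf10 (−1.96), Myc (−1.68) and Klf2 (−1.12), named after their values were seen. Fos and Jun, early genes themselves, were lower in both genotypes as well. LPS was given for 4 h in both LPS libraries, and levels at earlier times were not measured. Between genotypes, Ctgf stood at 89.7 FPKM in control and 44.3 FPKM in knockout without LPS (−1.002) and Cyr61 at 26.6 and 12.9 FPKM (−0.98). Both also differed with LPS (−0.96 and −0.73), in the libraries where the summed stromal marker level was 360 FPKM in knockout and 628 in control; the part of stromal RNA in these ratios was not tested.

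Genes reported as AP-1 targets were mostly higher with LPS, like many inflammatory genes. In control 27 of 37 were at least 2-fold higher and 2 lower, with a median of 2.42, and in knockout 26 and 2, with a median of 3.27. Il12b, Il23a, Csf2, Nos2, Mmp3, Hbegf and Ets1 were under 1 FPKM in both libraries without LPS. They were counted through LPS libraries alone, so with LPS they could not be called lower. The share lower was 5.41% in each genotype, where 6.68% of all genes were lower in control and 8.12% in knockout, and the share higher was 73.0% and 70.3%, where 10.04% and 11.2% of all genes were. The 2 lower genes were Ccnd1 (62.7 and 5.68 FPKM without and with LPS in control) and Plau (68.5 and 6.32 FPKM). The highest ratios were those of Il1b (11.25), Ptgs2 (9.24), Il6 (8.98) and Cxcl2 (8.37). Of the 37, 3 were at least 2-fold higher in knockout without LPS, where 0.412% of 10935 genes were, and 3 with LPS, where 0.503% were. Without LPS they were Il1b (1.37 FPKM in control and 6.70 FPKM in knockout, log2 ratio 1.70), Ptgs2 (1.297) and Il1rn (1.02). With LPS they were Csf2 (4.69 and 22.2 FPKM, 2.03), F3 (1.32) and Il23a (1.17). Il1rn, Il23a and the genes named as counted through LPS libraries alone were named after their values were seen.

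Partners of BATF proteins were present in part. Of 12 genes of BATF partners and BATF3-dependent dendritic cells, 5 reached 1 FPKM. Irf8 stood at 47.2 and 23.9 FPKM without and with LPS in control (log2 ratio −0.95) and at 51.9 and 27.1 FPKM in knockout (−0.91), whereas Irf4 was under 1 FPKM in all 4 libraries. Irf1 stood at 27.1 and 258 FPKM in control (3.21), Tlr3 at 5.11 and 9.89 FPKM (0.83) and Wdfy4 at 14.2 and 7.98 FPKM (−0.76). Xcr1, Clec9a, Itgae, Flt3, Zbtb46 and Cd24a were under 1 FPKM throughout.

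For each of the 7 called members, the 3 nearest profiles over the 4 libraries were sought among 8207 named genes, as Euclidean distance of log2(FPKM + 1) centred on each gene's mean. They were Zdhhc14, Fhod1 and Myc for Fos, with distances from 0.036 to 0.134, and Evi2b, Atp13a2 and Tbl1xr1 for Jun (0.022 to 0.074). For Junb they were Arl5c, Itgb8 and Foxp1 (0.047 to 0.092), for Fosl2 Dram1, 6330409N04Rik and Lad1 (0.076 to 0.10), and for Fosl1 Ncoa5, Tpr and Kdm4a (0.053 to 0.066). The genes nearest to Batf were Ccrn4l, Gpr85 and Map3k8 (0.069 to 0.117), and those nearest to Maff were Ripk2, Kcna3 and Tnip1 (0.085 to 0.134). With 4 libraries and 8207 candidates, such closeness is a description of these libraries.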

How the data were processed

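Libraries came from RNeasy-extracted RNA and a stranded TruSeq mRNA kit, per the labels' protocols. The submitters' processing notes name Cuffnorm 2.2.1, TopHat2 2.0.13, SAMtools 0.1.19, Bowtie2 2.2.3 and the build mm10, with no role or setting. For the annotation and the library scaling: not given in the sources used here. FPKM values were deposited by the authors per gene, 1 table for each library, with sums of 500123 to 819232 FPKM. No further scaling was applied to the main values. Relative depth was read from the steps of values under 0.3 FPKM, and fragments per kilobase from 347 single-transcript genes of GENCODE vM21 with 210 bases taken off the exonic length. Of 3175 low genes, 83.2% were whole multiples of 1 step within 0.02, with divisors up to 6. The commonest exact ratio to control without LPS held 286 of 1496 low genes in control with LPS. It held 351 of 1730 in knockout without LPS and 213 of 1273 in knockout with LPS. Depth recovery and calling were also run on simulated Poisson counts with 1 fixed length per gene, a simpler setting than the deposited values. The outcome of those runs is not given here. Ratios were computed in Python 3.11.15 with a pseudocount of 1 FPKM, and intervals (Clopper-Pearson for folds, exact Poisson for levels) with scipy 1.17.1. The members, the 5 gene lists, the marker lists and the rules were chosen with earlier results of these data known. Named were all members, Spic, up to 4 members of a list by LPS ratio in control, up to 2 for genotype, and 3 nearest profiles. Alternatives were pseudocounts of 0.1 and 5 FPKM, minima of 1 or 20 FPKM or none, folds of 1.5 and 3, median-ratio and upper-quartile scaling, list members from 5 FPKM, and leaving out small RNA and unnamed rows. One gene of the other bZIP list is not reported here by name or in the plot of that list.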

Additional observations from a re-analysis of the deposited data

Results flagged for a closer look

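The knockout to control ratio took opposite signs without and with LPS for 3 of the 10 genes, and these differences were not tested, since each group has 1 library. For Fos the log2 ratio was 0.42 without LPS and −0.11 with LPS, a difference of −0.53, and the counting interval of the fold left out 1 only without LPS. For Fosl1 it was −0.11 without LPS and 0.14 with LPS, a difference of 0.25, with both intervals including 1. For Batf it was 0.08 and −0.08, a difference of −0.17, with both intervals including 1. The number of such genes depends on the library scaling: after upper-quartile scaling Fosl2 (0.06 without LPS and −0.06 with LPS) and Maff (−0.01 and 0.05) took opposite signs as well.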

How the results depend on the processing

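Over 250 member values under alternatives, none of the called ratios changed sign. The LPS log2 ratios of the called genes ran over all alternatives from −1.92 to −1.41 for Fos, from −1.90 to −1.30 for Jun and from 3.001 to 3.74 for Batf in control. The counts of 5 higher and 2 lower genes with LPS held within 1.5 times under every alternative except a 3-fold threshold, which left 0 lower genes in control and 1 in knockout. With a pseudocount of 5 FPKM, lower genes with LPS numbered 3 among other bZIP genes in knockout and 0 among upstream genes in each genotype. With a pseudocount of 0.1 FPKM, 8 upstream genes were higher in knockout, and 3 after upper-quartile scaling. That scaling gave 5 lower immediate early genes in control and 4 in knockout. Between genotypes the count of called members was 0 under each of the 10 alternatives in both LPS states. Each alternative changed a single setting. With a pseudocount of 0.1 FPKM the log2 ratio of Batf3 without LPS was −1.25, past 2-fold, but the minimum of 5 FPKM kept it out of the count. No paired analysis was possible because each group has 1 library. Depth limits Fosb and Batf3, with at most 4 and 32 estimated fragments in a library.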

Other observations

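Among the other bZIP genes, the LPS responses of Atf3 and Batf2 differed most between genotypes, and both were picked for this after their values were seen. Atf3 stood at 158 and 159 FPKM in control without and with LPS and at 151 and 267 FPKM in knockout, a difference of responses of 0.82 on the log2 scale. Batf2, a relative of Batf, stood at 5.28 and 43.5 FPKM in control and at 5.05 and 69.7 FPKM in knockout, a difference of 0.72. Neither difference could be tested with 1 library a group.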
